A study of Mus musculus with 8 samples.

Results

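The 49 genes described here are markers of the immune cells of the liver, from Kupffer cells to the lymphocytes and granulocytes that circulate through it. They were listed by name from textbook markers, with earlier results of these data known. The estimated counts of the transcripts of each gene were summed. All 49 were found among the 35975 genes of the series, and 41 reached the minimum of 10 counts in each library and entered the test across 12883 genes. RNA of whole liver was sequenced after 2 weeks of infusion into the portal vein, with normal saline in 4 mice and with 4-HPAA (4-hydroxyphenylacetic acid, a product of gut bacteria) in the other 4. All 8 were C57BL/6 mice, bought at 8 to 10 weeks of age, with a portal cannula fed by an osmotic pump under the skin. The pump held 55 mM 4-HPAA in saline or saline alone, so the controls share the surgery, the cannula and the carrier fluid. The labels do not give the sex of the mice, and the 4 Y-linked genes examined were present in every library, with a summed level of 152 to 180 CPM (counts per 1000000 counts, scaled by TMM, edgeR's trimmed mean of M values).

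Kupffer cells are the macrophages that live in the sinusoids of the liver, where they take up particles, bacteria and aged red blood cells arriving with portal blood. They keep their identity through signals from hepatocytes, stellate cells and sinusoidal endothelial cells, and in the mouse Clec4f is the gene most restricted to them. Other immune cells of the liver include dendritic cells, monocytes, NK cells, T cells, B cells and, in the resting organ, few neutrophils. Blood from the gut passes these cells before it reaches other organs.

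The libraries held between 29559978 and 30673398 estimated counts, so depth hardly differed between livers. Hepatocyte genes identified the tissue as liver, with Alb, the gene of serum albumin, at 73130 to 100800 CPM. Together, the members took 0.0282% to 0.0769% of all counts in a liver. Red blood cell genes stood apart in 2 libraries, with a summed level of 2560 CPM in normal saline replicate 2 and 734 CPM in 4-HPAA replicate 4, against 152 to 376 CPM in the other 6. Hbb-bs, an adult beta globin, was at 1177 CPM in normal saline replicate 2 and 336 CPM in 4-HPAA replicate 4, and between 31.0 and 174 CPM elsewhere. Whether residual blood plays a part in any difference below was not tested beyond leaving these libraries out. In RNA of a whole organ, fewer cells of a type and less RNA per cell cannot be told apart.

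No marker passed the test for a difference between the infusions. Of the 41 members tested, 0 passed an adjusted p of 0.05 (edgeR's quasi-likelihood test, Benjamini-Hochberg), where 0% of all 12883 genes did. DESeq2 also called 0 members, and 0.0155% of all genes. Of the same 41, 0 had an unadjusted p under 0.05, against 1.75% of all genes, and the smallest was 0.0675, for Itgax. With each library left out in turn, 0 to 2 members had an unadjusted p under 0.05 in any 1 fit, namely Itgax, Cd79a, Ccr2 or H2-Eb1. The share of all genes at that p in those fits is not given, so these counts have no background beside them. In each of these fits 0 members passed adjustment. In 0 of the 49 members did the 4-HPAA livers lie wholly above or below the saline livers, against 1.2% of all genes tested and 1.41% of the 17770 genes with 10 counts summed over the libraries. The direction was split, with 22 members higher and 19 lower with 4-HPAA. Their median log2 fold change was 0.009, beside 0.001 over all genes.

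The fold changes of these markers were also less certain than those of most genes, and the markers varied more between livers. The median standard error of their log2 fold change was 0.339 (range 0.208 to 0.718), against 0.127 over all genes, and the median fold between the highest and lowest liver of a group was 2.52, against 1.30. The 95% interval of the fold change lay between -1 and 1 on the log2 scale for 23 of the 41 members, and for 94.95% of all genes.

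**Figure D1:**
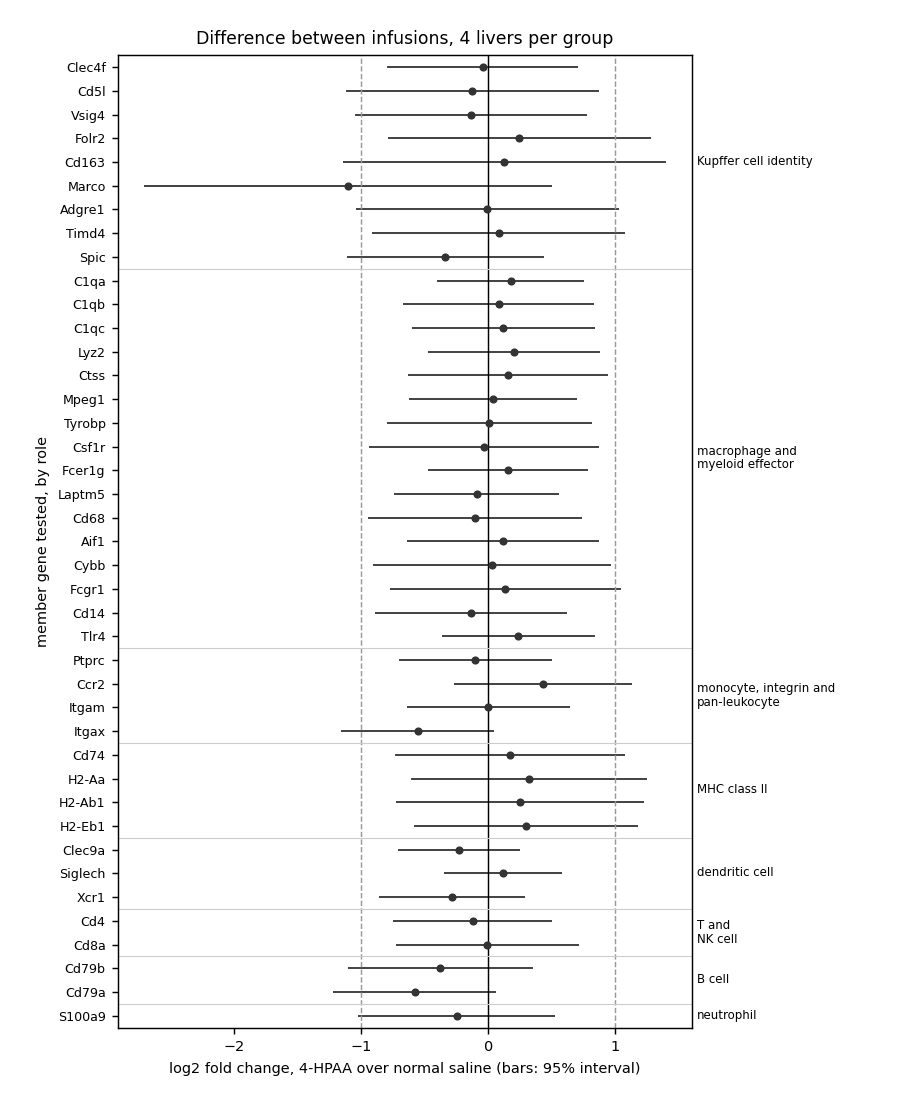
Log2 fold change of the 41 members tested, 4-HPAA over normal saline, by role, with 4 livers per group. Points are estimates of edgeR's quasi-likelihood fit, bars are 95% intervals and dashed lines mark a log2 fold change of -1 and 1. Every interval includes 0, and the widest is that of Marco.

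The 9 Kupffer cell identity genes had mean levels from 1.10 TPM (Spic) to 47.4 TPM (Clec4f). As a sum, they varied more between livers of a group than between the groups. Their summed level was 101, 288, 179 and 80.9 CPM in saline replicates 1 to 4, a mean of 162 ± 93.9 CPM (SD, n = 4). With 4-HPAA it was 170, 233, 129 and 73.7 CPM, a mean of 152 ± 67.3 CPM (SD, n = 4). The highest liver was 3.56 times the lowest with saline and 3.16 times with 4-HPAA, and the groups overlapped throughout. Of the 9 genes, 3 were higher and 6 lower with 4-HPAA, 0 passed the test, and the median log2 fold change was -0.044.

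Clec4f, a lectin receptor that marks Kupffer cells, was the most abundant of them per transcript length, at a mean of 47.4 TPM (counts divided by transcript length, scaled to 1000000 per library) over all livers. It lies on chromosome 6 of GRCm38 from 83644542 to 83656187 on the minus strand. Its level was 34.9, 82.5, 59.7 and 31.6 CPM in saline replicates 1 to 4 and 60.8, 69.7, 42.6 and 29.3 CPM in 4-HPAA replicates 1 to 4. Replicate 2 was highest and replicate 4 lowest in each group, and the log2 fold change was -0.044 (standard error 0.34, 95% interval -0.80 to 0.71). Most of its counts, 87.0%, fell on the coding transcript Clec4f-201, of 2471 bases. The other 12.99% fell on Clec4f-202, a processed transcript of 608 bases. The TPM of Clec4f therefore rests in part on a short transcript that is not annotated as coding. The TPM of Clec4f-201 alone is not given. By CPM, Cd5l was higher, at a mean of 53.29 CPM against 51.39 CPM for Clec4f.

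Cd5l, which encodes the secreted macrophage protein AIM, followed at a mean of 42.7 TPM. It measured 33.4, 98.3, 64.5 and 26.2 CPM with saline and 55.7, 82.3, 42.2 and 23.8 CPM with 4-HPAA, in replicate order. The order of the livers was that of Clec4f, and the log2 fold change was -0.12 (standard error 0.45, 95% interval -1.12 to 0.87). The ratio of Cd5l to Clec4f stayed between 0.810 and 1.19 in all 8 livers, while Cd5l alone spanned 3.76-fold among saline livers.

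Marco, a scavenger receptor that binds bacteria, had the largest fold change of any member and the least certain. It was at 2.82, 27.8, 6.66 and 4.19 CPM with saline and 1.96, 9.74, 4.34 and 3.22 CPM with 4-HPAA. Saline replicate 2 alone lay far above the rest, and the remaining livers of the groups overlapped. The log2 fold change was -1.10 (standard error 0.72, 95% interval -2.70 to 0.50, adjusted p = 1.00 by edgeR's quasi-likelihood test), and without saline replicate 2 it was 0.078. With replicate number as a block it was -0.815 (standard error 0.198, unadjusted p = 0.0037 by edgeR's quasi-likelihood test). In that fit 336 genes had an unadjusted p under 0.05 and 0 genes passed adjustment. Relative to Clec4f, Marco ranged over 10.4-fold between livers, from 0.0322 in 4-HPAA replicate 1 to 0.336 in saline replicate 2, the library with the most red blood cell RNA.

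The other 6 identity genes were likewise highest in replicate 2 of each group. Vsig4, a complement receptor, kept a ratio to Clec4f of 0.172 to 0.236, whereas Cd163, the receptor for haptoglobin-bound hemoglobin, ranged from 0.132 to 0.395 of Clec4f. Folr2, a folate receptor, Timd4, a receptor for dying cells, and Adgre1, which encodes F4/80, had log2 fold changes of 0.24, 0.084 and -0.005. Spic, a transcription factor of iron-recycling macrophages, was the lowest of the group at a mean of 1.10 TPM, with a log2 fold change of -0.34 (standard error 0.35). Folr2 shares 63.1% of its exon bases with an antisense gene, and reads of the 2 strands cannot be told apart in these counts.

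To show the sequence next to these genes, the 250 bases upstream of the RefSeq start site (GRCm38.p6) are given for the identity genes that hold the letters GAGGAA, the core bound by PU.1, a transcription factor that macrophages need, on either strand. This was found in 3 of 9 identity gene promoters, in 16 of 39 promoters of the 37 members that matched, and in 23.3% of all 32851 promoters. Capitals mark the match, which for Cd5l is its reverse complement. A match describes letters and is no measured binding.
Cd5l promoter, chr3:87357631-87357880, plus strand: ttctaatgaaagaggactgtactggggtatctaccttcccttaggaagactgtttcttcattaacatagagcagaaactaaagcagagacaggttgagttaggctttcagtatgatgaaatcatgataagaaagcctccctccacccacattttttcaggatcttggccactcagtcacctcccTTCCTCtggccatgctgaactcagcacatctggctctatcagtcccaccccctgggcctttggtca
Vsig4 promoter, chrX:96293439-96293688, minus strand: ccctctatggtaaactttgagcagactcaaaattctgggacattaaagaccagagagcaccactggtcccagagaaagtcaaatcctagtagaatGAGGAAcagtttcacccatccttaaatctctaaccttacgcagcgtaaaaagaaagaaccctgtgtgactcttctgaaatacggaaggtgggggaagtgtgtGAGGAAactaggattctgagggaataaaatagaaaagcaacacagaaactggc
Marco promoter, chr1:120505025-120505274, minus strand: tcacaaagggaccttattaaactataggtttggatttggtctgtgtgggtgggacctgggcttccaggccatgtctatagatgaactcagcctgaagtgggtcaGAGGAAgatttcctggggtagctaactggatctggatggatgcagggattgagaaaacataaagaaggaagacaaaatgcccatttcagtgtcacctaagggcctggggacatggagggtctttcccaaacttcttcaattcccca

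The 16 macrophage and myeloid effector genes varied between livers much as the identity genes did. Their summed level was 155, 286, 250 and 136 CPM with saline and 227, 333, 179 and 133 CPM with 4-HPAA, in replicate order, with group means of 207 ± 72.5 and 218 ± 85.7 CPM (SD, n = 4 each). Of the 16, 12 were higher and 4 lower with 4-HPAA, 0 passed the test, and the median log2 fold change was 0.10. They form the core of the phagocyte machinery: receptors, lysosomal proteins and complement.

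C1qa and C1qb encode subunits of C1q, the protein that starts the classical complement pathway, and led this group at means of 33.4 and 31.4 TPM. C1qa was at 17.1, 27.9, 21.9 and 13.05 CPM with saline and 23.9, 31.6, 19.5 and 15.2 CPM with 4-HPAA. C1qb was at 15.4, 31.8, 22.5 and 11.6 CPM with saline and 24.9, 30.2, 19.5 and 11.7 CPM with 4-HPAA. The liver order was that of Clec4f, and the log2 fold changes were 0.18 (standard error 0.26) and 0.084 (standard error 0.34). C1qc, the remaining subunit, stayed at 0.919 to 1.04 times C1qb in every liver.

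Tlr4, the receptor for bacterial lipopolysaccharide, had the smallest p of the group, at a mean of 0.513 TPM. It was at 0.994, 1.34, 0.754 and 0.893 CPM with saline and 1.19, 1.53, 1.26 and 0.700 CPM with 4-HPAA, from 20 to 46 counts a library. The log2 fold change was 0.24 (standard error 0.27), and the groups overlapped. Leaving out 4-HPAA replicate 2 gave 0.081, and leaving out 4-HPAA replicate 4 gave 0.41. Cd14, its coreceptor, had a log2 fold change of -0.14 (standard error 0.34). Lyz2, the lysozyme gene of myeloid cells, Ctss, a lysosomal protease, and Mpeg1, a pore-forming antibacterial protein, were at means of 26.5, 20.3 and 19.9 TPM, with log2 fold changes of 0.20, 0.16 and 0.039. Lyz1, the close copy of Lyz2, received 0 to 2 counts a library.

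The receptor for the growth factor of macrophages, Csf1r, and the signaling adapters Tyrobp and Fcer1g had log2 fold changes of -0.036, 0.009 and 0.16. For Cybb, a subunit of the oxidative burst, and Fcgr1, a high-affinity antibody receptor, the log2 fold changes were 0.033 and 0.14. Cd68, Laptm5 and Aif1, used as general macrophage or leukocyte markers, were at -0.10, -0.09 and 0.12. Csf1r shares 15.1% of its exon bases with Hmgxb3 on the opposite strand, a gene with a mean of 419 estimated counts.

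**Figure D2:**
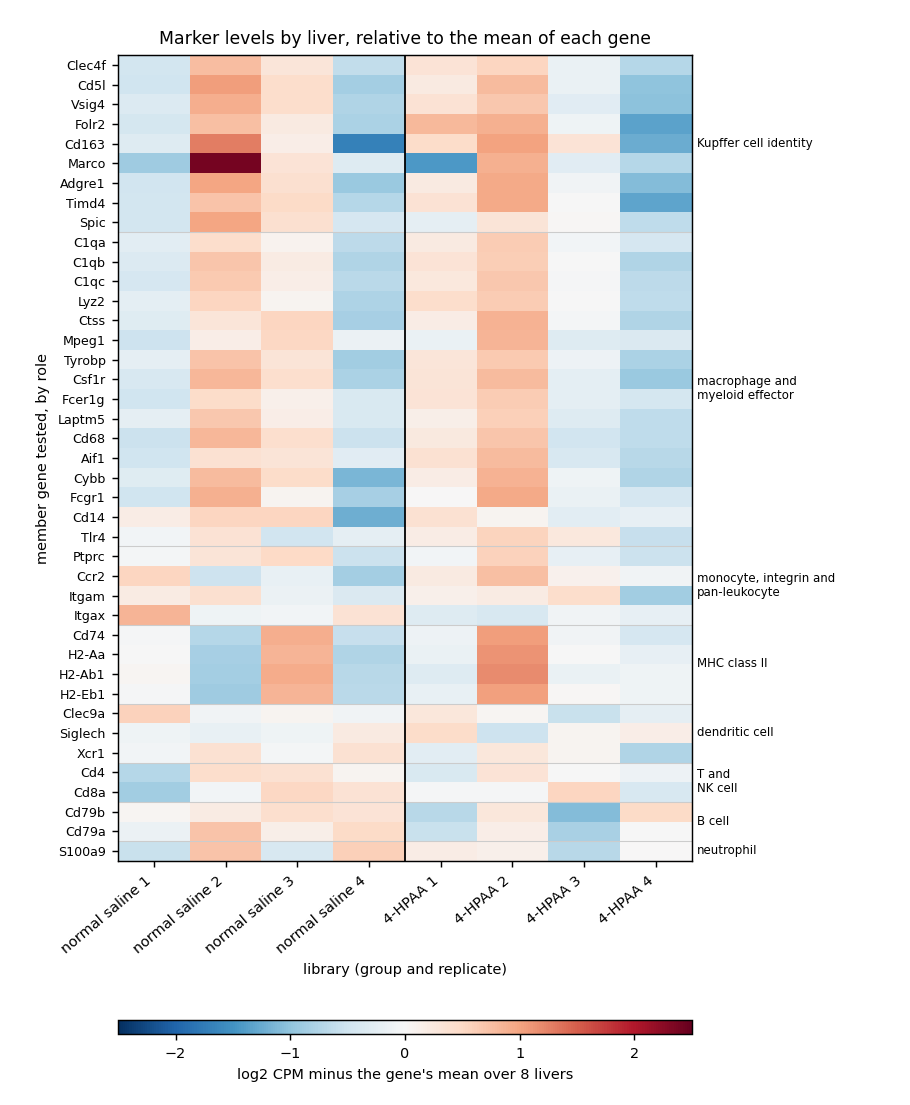
Log2 CPM of the 41 members tested in each of 8 livers, minus the mean of the gene, by role, with a line between the groups. Red is higher and blue lower. All 9 Kupffer genes and 13 of 16 myeloid genes are highest in replicate 2 of each group, and MHC class II genes in saline replicate 3 and 4-HPAA replicate 2.

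The Kupffer and myeloid genes varied together from liver to liver. All 9 identity genes were highest in replicate 2 of each group, as were 13 of the 16 effector genes, against 6.63% of all genes tested. The lowest liver of each group was replicate 4 for 7 of the 9 and 11 of the 16, against 14.9% of all genes. This order was noticed after the values were seen and is given as a description. Sinusoidal endothelial genes, whose cells line the same vessels, were also lowest in replicate 4 of each group for 5 of 6 genes, at 97.4 and 96.4 CPM summed, but spanned 1.46-fold with saline and 1.71-fold with 4-HPAA. Stellate cell genes were lowest there for 4 of 6 genes, with sums that spanned 2.03-fold and 1.75-fold. Of 13 other resident macrophage genes, 7 were lowest in replicate 4 of each group but 3 were highest in replicate 2 of each. The ratio of the Kupffer sum to the endothelial sum still ranged from 0.721 to 2.24. Hepatocyte genes were highest, as a sum, in replicate 4 of each group. The part of cell composition or tissue sampling in this pattern was not tested.

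MHC class II genes, which present antigen to helper T cells, followed another order. Their summed level was 77.8, 45.4, 146 and 50.02 CPM with saline and 69.6, 167, 74.9 and 65.2 CPM with 4-HPAA. All 4 were highest in saline replicate 3 and 4-HPAA replicate 2, against 11.7% of all genes. This order, too, was noticed after the values were seen and is given as a description of 4 genes that vary together. All 4 were lowest among saline livers in replicate 2, where the Kupffer genes were highest. The share of all genes lowest there is not given. The MHC class II sum was 0.158 of the Kupffer sum there and up to 0.884 in 4-HPAA replicate 4. Group means were 79.8 ± 46.3 CPM with saline and 94.1 ± 48.5 CPM with 4-HPAA (SD, n = 4 each), and the log2 fold changes of the 4 genes, 0.17 to 0.32, passed the test for 0.

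Cd74, the invariant chain that escorts class II molecules, was the most abundant member per transcript length, at a mean of 51.4 TPM. It was at 35.2, 21.9, 67.6 and 24.0 CPM with saline and 33.0, 74.2, 33.8 and 26.7 CPM with 4-HPAA. H2-Aa, an alpha chain, was at 16.03, 9.12, 29.4 and 9.58 CPM with saline and 14.5, 35.6, 16.05 and 14.2 CPM with 4-HPAA. Each had its highest value in 4-HPAA replicate 2 and its lowest in saline replicate 2, and the log2 fold changes were 0.17 (standard error 0.40) and 0.32 (standard error 0.42). H2-Ab1 and H2-Eb1, the beta chains, kept ratios to H2-Aa of 0.776 to 0.921 and 0.695 to 0.796. Of the H2-Eb1 counts, 48.3% fell on H2-Eb1-205, a transcript annotated for nonsense-mediated decay, and 34.7% on coding transcripts.

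The sequences upstream of H2-Aa and H2-Eb1 are given to show the sequence next to the class II genes that matched RefSeq. Both hold CTGATTGG, the Y box of class II promoters, marked in capitals, searched on both strands, within 62 bases of the start. It occurs in 3.83% of all 32851 promoters and in 2 of the 2 class II promoters that matched RefSeq. Here too a match describes letters and is no measured binding.
H2-Aa promoter, chr17:34287824-34288073, minus strand: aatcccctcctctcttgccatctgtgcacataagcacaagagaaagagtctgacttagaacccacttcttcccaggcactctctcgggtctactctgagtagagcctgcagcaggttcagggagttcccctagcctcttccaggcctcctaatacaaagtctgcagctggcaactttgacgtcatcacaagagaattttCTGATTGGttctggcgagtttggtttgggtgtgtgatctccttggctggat
H2-Eb1 promoter, chr17:34305617-34305866, plus strand: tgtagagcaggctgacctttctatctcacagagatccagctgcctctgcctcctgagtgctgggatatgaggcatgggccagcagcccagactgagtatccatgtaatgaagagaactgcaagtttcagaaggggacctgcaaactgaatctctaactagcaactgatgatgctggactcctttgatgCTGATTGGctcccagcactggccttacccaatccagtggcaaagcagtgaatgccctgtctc

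**Figure D3:**
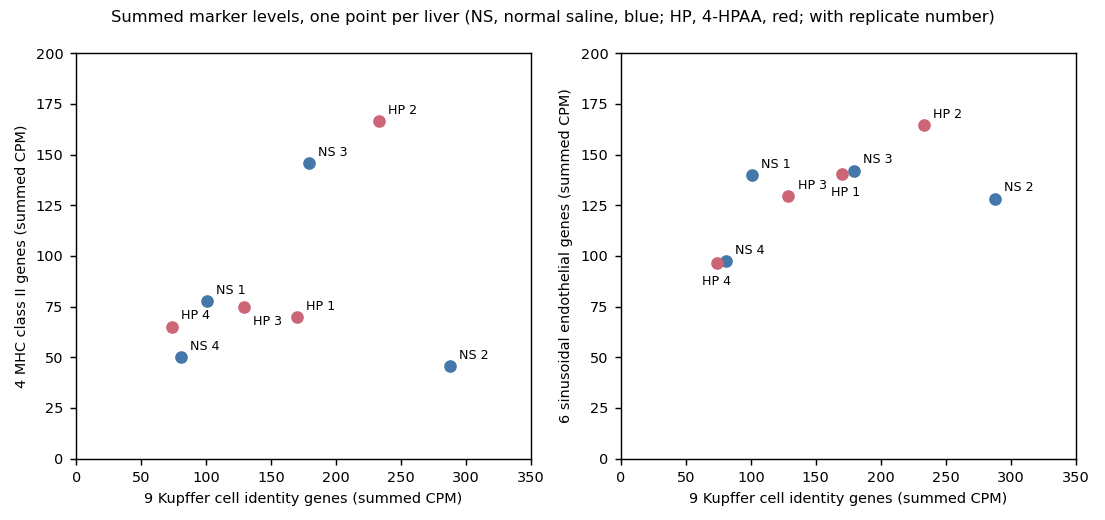
Summed CPM of 4 MHC class II genes (left) and 6 sinusoidal endothelial genes (right) against that of 9 Kupffer cell identity genes, one point a liver, labeled by group and replicate. Saline replicate 2 has the highest Kupffer sum, 288 CPM, and the lowest class II sum, 45.4 CPM.

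Genes of monocytes, integrins and all leukocytes were far lower. Ptprc, the pan-leukocyte phosphatase CD45, was at 5.29, 6.86, 7.74 and 3.78 CPM with saline and 5.27, 8.20, 4.79 and 3.81 CPM with 4-HPAA, a log2 fold change of -0.10 (standard error 0.27). Ccr2, the receptor that draws monocytes from the marrow, was at 1.35, 0.652, 0.820 and 0.515 CPM with saline and 1.08, 1.57, 1.00 and 0.874 CPM with 4-HPAA. Its log2 fold change of 0.44 (standard error 0.31) was the highest of any member, though the groups overlapped, and without saline replicate 1 it was 0.77. Itgax, the integrin CD11c, was at 0.866, 0.446, 0.459 and 0.618 CPM with saline and 0.384, 0.367, 0.453 and 0.420 CPM with 4-HPAA, on 11 to 27 counts a library. Its log2 fold change was -0.56 (standard error 0.27, 95% interval -1.16 to 0.048). Itgam, the integrin CD11b, differed by 0.002 on the log2 scale and shares 68.7% of its exon bases with Gm49368 on the same strand, which had a mean of 1.03 counts. Cx3cr1, the fractalkine receptor, held 6 to 20 counts and was not tested.

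The 3 dendritic cell genes did not follow the Kupffer order. Clec9a, a receptor for dead cells on conventional dendritic cells, was at 5.77, 3.64, 4.04 and 3.64 CPM with saline and 4.68, 4.00, 2.62 and 3.32 CPM with 4-HPAA. Siglech, a marker of plasmacytoid dendritic cells, was at 2.40, 2.26, 2.40 and 3.02 CPM with saline and 3.53, 1.80, 2.72 and 2.90 CPM with 4-HPAA. Xcr1, the chemokine receptor of cross-presenting dendritic cells, was at 0.673, 0.926, 0.689 and 0.928 CPM with saline and 0.594, 0.867, 0.744 and 0.420 CPM with 4-HPAA. The groups overlapped in each, and the fold changes on the log2 scale were -0.23, 0.12 and -0.28, with standard errors of 0.22, 0.21 and 0.26. Clec9a shares 5.59% of its exon bases with Clec1b, which held 179 to 350 counts a library.

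T and NK cell genes stood near the lower end of what these libraries can measure. Only Cd4 and Cd8a, the coreceptors of helper and cytotoxic T cells, of 7 genes passed the minimum of 10 counts. Cd4 held 13, 27, 27 and 21 counts with saline and 15, 26, 21 and 18 with 4-HPAA, a log2 fold change of -0.12 (standard error 0.28). For Ccl5, a chemokine of T and NK cells, the counts were 21, 9, 31 and 21 with saline and 15, 25, 10 and 14 with 4-HPAA. Nkg7, a protein of cytotoxic granules, held 12, 12, 10 and 9 counts with saline and 11, 19, 5 and 9 with 4-HPAA. Cd3e, Cd3g and Gzma held 4 to 19 counts in any liver. With the minimum lowered to 10 counts summed over all libraries, the 5 untested genes had log2 fold changes from -0.32 to 0.062, with standard errors of 0.37 to 0.45.

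The 2 tested B cell genes, which encode the signaling chains of the antigen receptor, were lower on average with 4-HPAA without passing the test. Cd79a held 16, 27, 19 and 23 counts with saline and 11, 19, 10 and 16 with 4-HPAA, a log2 fold change of -0.58 (standard error 0.29, unadjusted p = 0.0716 and adjusted p = 1.00 by edgeR's quasi-likelihood test). Cd79b held 22, 23, 28 and 25 counts with saline and 12, 25, 10 and 27 with 4-HPAA, a log2 fold change of -0.38 (standard error 0.33). In each, 4-HPAA replicates 1 and 3 lay below every saline liver and the other two did not. Ms4a1, which encodes CD20, held 2 to 17 counts and was not tested. With the minimum lowered to 10 counts summed over all libraries, its log2 fold change was 0.15 (standard error 0.55), the opposite direction.

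The 2 neutrophil members were close to the floor. S100a9, a subunit of calprotectin, held 11, 25, 12 and 23 counts with saline and 17, 17, 10 and 15 with 4-HPAA, a log2 fold change of -0.25 (standard error 0.35). S100a8, its partner, held 7, 13, 8 and 13 counts with saline and 8, 14, 4 and 16 with 4-HPAA, and was not tested. With the minimum lowered to 10 counts summed over all libraries, its log2 fold change was 0.062 (standard error 0.46), the opposite direction. Among neutrophil genes outside the members, Ly6g, Retnlg, Camp, Ltf and Mpo did not exceed 6 counts in any liver. These were picked by their low counts. Of the 11 monocyte and neutrophil genes listed, 5 reached 10 counts in every library, and Csf3r, Cxcr2 or both were among them.

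**Figure D4:**
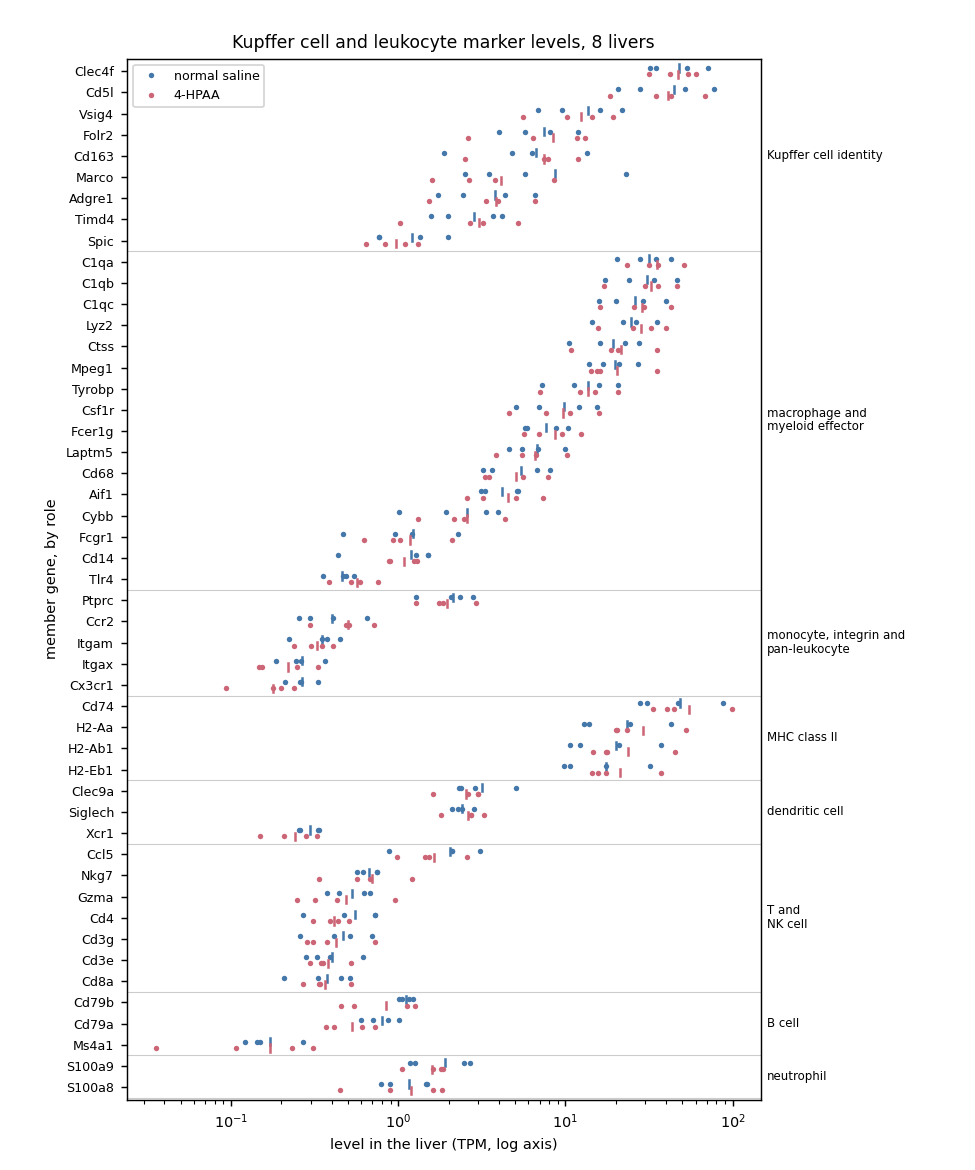
Level of the 49 members in each of 8 livers in TPM on a log axis, by role and ordered by mean, with a vertical mark at each group mean. Cd74, Clec4f and Cd5l are highest, and lymphocyte and neutrophil genes lie mostly below 2 TPM.

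The direction of many members depended on which livers were included. From 22 of 41 with all livers, the number of members higher with 4-HPAA went to 5 of 41 without 4-HPAA replicate 2 and to 13 of 41 without saline replicate 1 or saline replicate 4. It was 32 of 42 without saline replicate 2 and 31 of 42 without 4-HPAA replicate 4, the libraries with the most red blood cell RNA. With saline replicate 2 and 4-HPAA replicate 4 left out together, 35 of 43 members were higher with 4-HPAA and their median log2 fold change was 0.33. An unadjusted p under 0.05 was then found for 7 of 43, against 2.18% of all genes: Cd163, Folr2, C1qa, C1qb, C1qc, Tlr4 and Lyz2, all higher (as were 0.98% of all genes at that p), by 0.52 to 1.05 on the log2 scale, and 0 passed adjustment over all genes. By construction, leaving these out removes the saline liver with the highest Kupffer sum and the 4-HPAA liver with the lowest.

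Among other genes of the same biology, 0 passed the adjusted test. Of 12 macrophage growth and transcription factors 11 were tested, 5 higher and 6 lower, with a median log2 fold change of -0.012. Their summed CPM spanned 1.245-fold with saline and 1.083-fold with 4-HPAA, against 3.56-fold and 3.16-fold for the Kupffer sum. Which cells supply this RNA was not tested. Nr1h3, the sterol-sensing nuclear receptor LXR alpha, was the most abundant of them at 68.7 TPM and Id3, which Kupffer cells need, had the smallest p (log2 fold change 0.65, standard error 0.36). Of 18 chemokines and cytokines 8 were tested, 4 higher and 4 lower, led in level by Cxcl12. Cxcl9, an interferon-induced chemokine, was at 5.68, 4.84, 7.45 and 6.36 CPM with saline and 6.14, 15.8, 7.12 and 8.46 CPM with 4-HPAA, its highest value in the liver with the most class II RNA. Il6 and Tnf did not exceed 4 counts in any liver.

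Of 14 other resident macrophage genes 13 were tested, 6 higher and 7 lower. Cd36, a fatty acid and lipoprotein receptor that hepatocytes and endothelium also express, was lower in every 4-HPAA liver than in every saline liver, at 43.8, 47.6, 47.3 and 43.25 CPM with saline and 37.7, 41.0, 32.8 and 35.8 CPM with 4-HPAA (log2 fold change -0.30, standard error 0.083, adjusted p = 1.00 by edgeR's quasi-likelihood test). Cd36 had the smallest p of the 13, and the groups did not overlap in 1.2% of all genes tested. Slc40a1, the iron exporter ferroportin, was the most abundant at 63.1 TPM. Of 11 monocyte and neutrophil genes 5 were tested, 1 higher and 4 lower, and Plac8 was the most abundant. Markers of the other liver cells gave 0 adjusted calls in 6 sinusoidal endothelial, 6 stellate, 3 cholangiocyte, 5 hepatocyte, 5 red blood cell and 1 platelet gene tested.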

How the data were processed

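RNA of whole liver from 4 mice infused with normal saline and 4 infused with 4-HPAA was examined. According to the study's methods, reads were pseudo-aligned with kallisto, and the authors deposited an estimated count per transcript and mouse, which is not normalized. The methods name NCBI annotation, while the transcripts carry Ensembl identifiers. All columns were matched to a mouse by name.

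Transcripts were added up to genes with GENCODE M21 (build GRCm38) and the sums rounded. Of 119414 transcripts, 2686 were not matched, holding 0.703% to 1.06% of a library. Each library is a separate mouse. Genes that reached 10 counts in all libraries entered the quasi-likelihood F test of edgeR 4.0.16 (TMM, Benjamini-Hochberg over all genes, threshold 0.05) in R 4.3.3, and the steps were tested on simulated data. CPM were scaled by TMM, and TPM used annotated transcript lengths. DESeq2 1.42.0, limma 3.58.1, other filters and scalings, a replicate block and libraries left out were the alternatives. Coordinates count from 1.

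The members and lists were chosen with earlier results of these data known. Named with values in every library are, per role, the 2 members with the highest mean TPM and the one with the smallest p, and members with an unadjusted p under 0.05 or with groups apart. Of the other lists, the most abundant gene and the one with the smallest p could be named. Il6, Tnf, Hmgxb3, Gm49368, Clec1b, Lyz1, Ly6g, Retnlg, Camp, Ltf, Mpo, Csf3r, Cxcr2, Ighm and Jchain were named after their values were seen. The values of 1 further lymphocyte gene are not reported here.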

Additional observations from a re-analysis of the deposited data

Results flagged for a closer look

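In each group of 4 livers, a value counts as standing apart where the gap to its nearest neighbor relative to the range of the group exceeds the 95% critical value of Dixon's test for 4 samples. Of 114 groups examined, 9 met this, where chance gives about 1 in 20. Many of these groups share libraries and genes that move together.

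The class II genes account for 5 of the 9, each from 4-HPAA replicate 2. Cd74 was at 74.2 CPM there against 26.7 to 33.8 CPM in the other 4-HPAA livers, H2-Aa at 35.6 against 14.2 to 16.05 CPM, H2-Ab1 at 32.0 against 11.3 to 13.05 CPM and H2-Eb1 at 24.7 against 10.8 to 12.4 CPM. The 4 genes summed to 167 CPM against 65.2 to 74.9 CPM. Mpeg1 stood out in the same liver, at 90.4 CPM against 38.9 to 44.6 CPM.

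With saline, Marco was at 27.8 CPM in replicate 2 against 2.82 to 6.66 CPM, and Cx3cr1 was low in the same liver, at 0.480 CPM against 0.618 to 0.641 CPM. Ms4a1 was at 0.459 CPM in replicate 3 against 0.206 to 0.240 CPM. The values of Cx3cr1 and Ms4a1 rest on 6 to 20 counts in the saline livers.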

How the results depend on the processing

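The count of members past the threshold was 0 under every alternative run. Over all genes it was 0, except 2 with DESeq2 and 0 to 1 with each library left out in turn (1 without 4-HPAA replicate 1). The members' median log2 fold change ranged from -0.24 (without 4-HPAA replicate 2, 5 of 41 members higher) to 0.20 (without 4-HPAA replicate 4) with a library left out. The number of members higher reached 32 of 42 without saline replicate 2. By role the ranges were -0.40 to 0.30 for Kupffer, -0.18 to 0.31 for myeloid, -0.20 to 0.12 for monocyte and pan-leukocyte and -0.17 to 0.74 for class II genes. They were -0.27 to -0.046 for dendritic, -0.27 to 0.079 for T and NK and -0.66 to -0.29 for B cell genes. For the neutrophil genes, of which only S100a9 was tested, the range was -0.43 to -0.027. Leaving out a library changed the sign of Clec4f (-0.24 to 0.26), Cd5l (-0.45 to 0.30), Marco (-1.70 to 0.078), C1qa (-0.029 to 0.38), C1qb (-0.12 to 0.38), Ptprc (-0.36 to 0.056), Cd74 (-0.26 to 0.63), H2-Aa (-0.11 to 0.79), Siglech (-0.023 to 0.27) and Cd4 (-0.32 to 0.004). The other 8 members followed kept their sign, with ranges of 0.081 to 0.41 for Tlr4, 0.24 to 0.77 for Ccr2, -0.67 to -0.32 for Itgax, -0.36 to -0.046 for Clec9a, -0.45 to -0.13 for Xcr1, -0.64 to -0.16 for Cd79b, -0.75 to -0.43 for Cd79a and -0.43 to -0.027 for S100a9. Without both libraries rich in blood transcripts, Clec4f was at 0.45, Cd5l 0.53, Marco 0.22, Ptprc 0.11 and Cd4 0.030, and the dendritic median was -0.058. The cause was not tested. Of 306 values of 18 members, 283 kept their direction. A replicate block left 0 genes past the threshold. It gave 336 genes an unadjusted p under 0.05, against 225 without the block, and 2 members did (Marco and Cd79a). Deviations of same-numbered livers had correlations across genes of 0.040, 0.17, 0.27 and 0.48, all positive but not all above 0.1. Saline replicate 3 correlated best with 4-HPAA replicate 2 (0.47). The labels do not say that the numbers mark pairs, and they were not taken as pairs. Whether same-numbered livers share a day or handling was not tested. Of the 49 members, 41 had the depth to be tested; how much counting error and the spread between mice each add was not tested.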

Other observations

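Of 13 further lymphocyte genes 6 were tested, 1 higher and 5 lower with 4-HPAA, and 0 passed the adjusted test of edgeR. Of the 6, 3 had an unadjusted p below 0.05, against 1.75% of all genes. Igkc, the constant part of the kappa light chain, was at 0.930, 2.16, 1.77 and 1.96 CPM with saline and 0.908, 1.27, 1.04 and 0.804 CPM with 4-HPAA, a log2 fold change of -0.76 (standard error 0.27). Ighm, the heavy chain of IgM, was at 2.56, 4.97, 5.97 and 3.88 CPM with saline and 2.10, 3.77, 2.14 and 2.34 CPM with 4-HPAA, a log2 fold change of -0.75 (standard error 0.28). The groups overlapped in both. Jchain, which joins secreted antibodies, had a log2 fold change of -0.074 (standard error 0.35).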
